A study of Mus musculus with 18 samples.

Results

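Lipid droplets are the stores of triglyceride and cholesteryl ester in a cell, and the 10 genes followed here encode proteins that coat them, join them or help to form them. They were chosen as a named family: the CIDE genes Cidea, Cideb and Cidec, the perilipins Plin2, Plin3, Plin4 and Plin5, the lipase inhibitor G0s2, and the fat storage-inducing genes Fitm1 and Fitm2. All 10 were found by their symbol in the platform annotation, in 11 probe sets, and Plin5, with 2, is given by its brighter probe set. They belong to 14694 genes tested. RNA of whole liver came from C57BL/6 mice, either wild type (WT, AIM+/+) or AIM-deficient (AIM-KO, AIM-/-). The mice were fed normal chow (0 weeks of HFD), or the high-fat diet, HFD, during 12 or 20 weeks. Each of the 6 groups had 3 arrays. AIM is a protein secreted by macrophages and encoded by Cd5l. How the allele was made, the sex and age of the mice, and whether controls were littermates are not given in the sources used here, so weeks of diet and age cannot be told apart.

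A droplet forms in the membrane of the endoplasmic reticulum, where FIT proteins (Fitm1 and Fitm2) take part in its budding. Perilipins then cover its surface and govern the access of lipases, and G0S2 binds and inhibits adipose triglyceride lipase (Pnpla2), the enzyme of the opening step of droplet breakdown. CIDEA and CIDEC gather at contacts between droplets and move lipid from the smaller to the larger. Both are typical of adipose tissue and are known to appear in fatty liver, where the nuclear receptor PPARG drives Cidec, whereas CIDEB is the CIDE protein of normal liver and also serves the lipidation of secreted lipoproteins.

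The median intensity of an array lay between 15 and 21.1, and the few arrays, rather than a read depth, limit the precision. Cd5l read 702.6 to 1926.8 on the 9 WT arrays and 4 to 23.5 on the 9 AIM-KO arrays, which matches the labels. Hepatocyte markers were bright on every array (albumin 6139 to 11104). Arrays that stand apart touch the results. Xist, the transcript of the inactive X chromosome of females, read 2922 to 3050 on 4 arrays, namely WT 20 weeks replicate 2 and all 3 AIM-KO arrays at 20 weeks, and 7.8 to 26.2 on the other 14. AIM-KO at 20 weeks therefore differs from every other group also in this respect. Among the 6 chow arrays, AIM-KO chow replicate 3 had the highest level of 8 of the 10 members, against 24.2% of all genes.

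The promoters of the members called in all 4 comparisons of HFD with chow are shown first, because each of these genes rose in every HFD group. RefSeq promoter windows on GRCm38.p6 were found for 9 of the 10 members (11 windows), and the 250 bases before each annotated start are printed here in the direction of the gene, with capitals for letters that match a motif searched.
Cidec, first start, chr6:113435761-113436010, minus strand: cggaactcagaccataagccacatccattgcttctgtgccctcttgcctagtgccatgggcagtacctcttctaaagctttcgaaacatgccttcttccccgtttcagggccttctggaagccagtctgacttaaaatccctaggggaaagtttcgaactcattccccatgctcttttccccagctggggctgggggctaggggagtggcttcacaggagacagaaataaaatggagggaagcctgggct
Cidec, second start, chr6:113434765-113435014, minus strand: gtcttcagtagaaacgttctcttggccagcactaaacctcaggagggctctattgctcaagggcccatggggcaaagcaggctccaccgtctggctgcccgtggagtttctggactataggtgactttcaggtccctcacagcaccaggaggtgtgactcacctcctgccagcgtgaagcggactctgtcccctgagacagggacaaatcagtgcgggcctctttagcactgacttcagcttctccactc
Plin2, chr4:86670060-86670309, minus strand: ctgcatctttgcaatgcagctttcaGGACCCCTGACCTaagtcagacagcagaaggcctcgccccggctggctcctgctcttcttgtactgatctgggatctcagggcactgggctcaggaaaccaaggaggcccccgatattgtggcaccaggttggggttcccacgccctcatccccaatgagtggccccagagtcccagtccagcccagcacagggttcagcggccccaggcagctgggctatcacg
Plin4, chr17:56109783-56110032, minus strand: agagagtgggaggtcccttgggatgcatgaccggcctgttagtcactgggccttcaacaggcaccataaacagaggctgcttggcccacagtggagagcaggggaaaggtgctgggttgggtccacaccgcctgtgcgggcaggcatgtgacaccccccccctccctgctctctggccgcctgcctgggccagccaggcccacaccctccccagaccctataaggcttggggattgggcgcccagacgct
G0s2, chr1:193273189-193273438, minus strand: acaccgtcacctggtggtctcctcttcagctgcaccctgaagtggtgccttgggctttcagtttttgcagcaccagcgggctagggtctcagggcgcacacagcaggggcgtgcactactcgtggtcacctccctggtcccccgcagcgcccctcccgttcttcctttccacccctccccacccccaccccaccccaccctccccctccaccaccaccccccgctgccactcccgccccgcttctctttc
The PPAR half-site AGGTCA, read on both strands, was present in 2 of the 11 windows, those of Plin2 and Plin5, and in 14% of 32851 windows of all genes. A direct repeat of that half-site with 1 base between the copies, allowing up to 2 mismatches, was found in the Plin2 window alone among the members, beginning 225 bases before the start, and in 3.24% of all windows. It overlaps the half-site found there, so these are not separate matches. The E-box CACGTG was in none of the member windows and in 6.02% of all. Such matches describe letters and show no binding. In gene order Plin4 and Plin5 are direct neighbours on chromosome 17, and 7 protein-coding genes lie between Plin5 and Plin3.

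**Figure D1:**
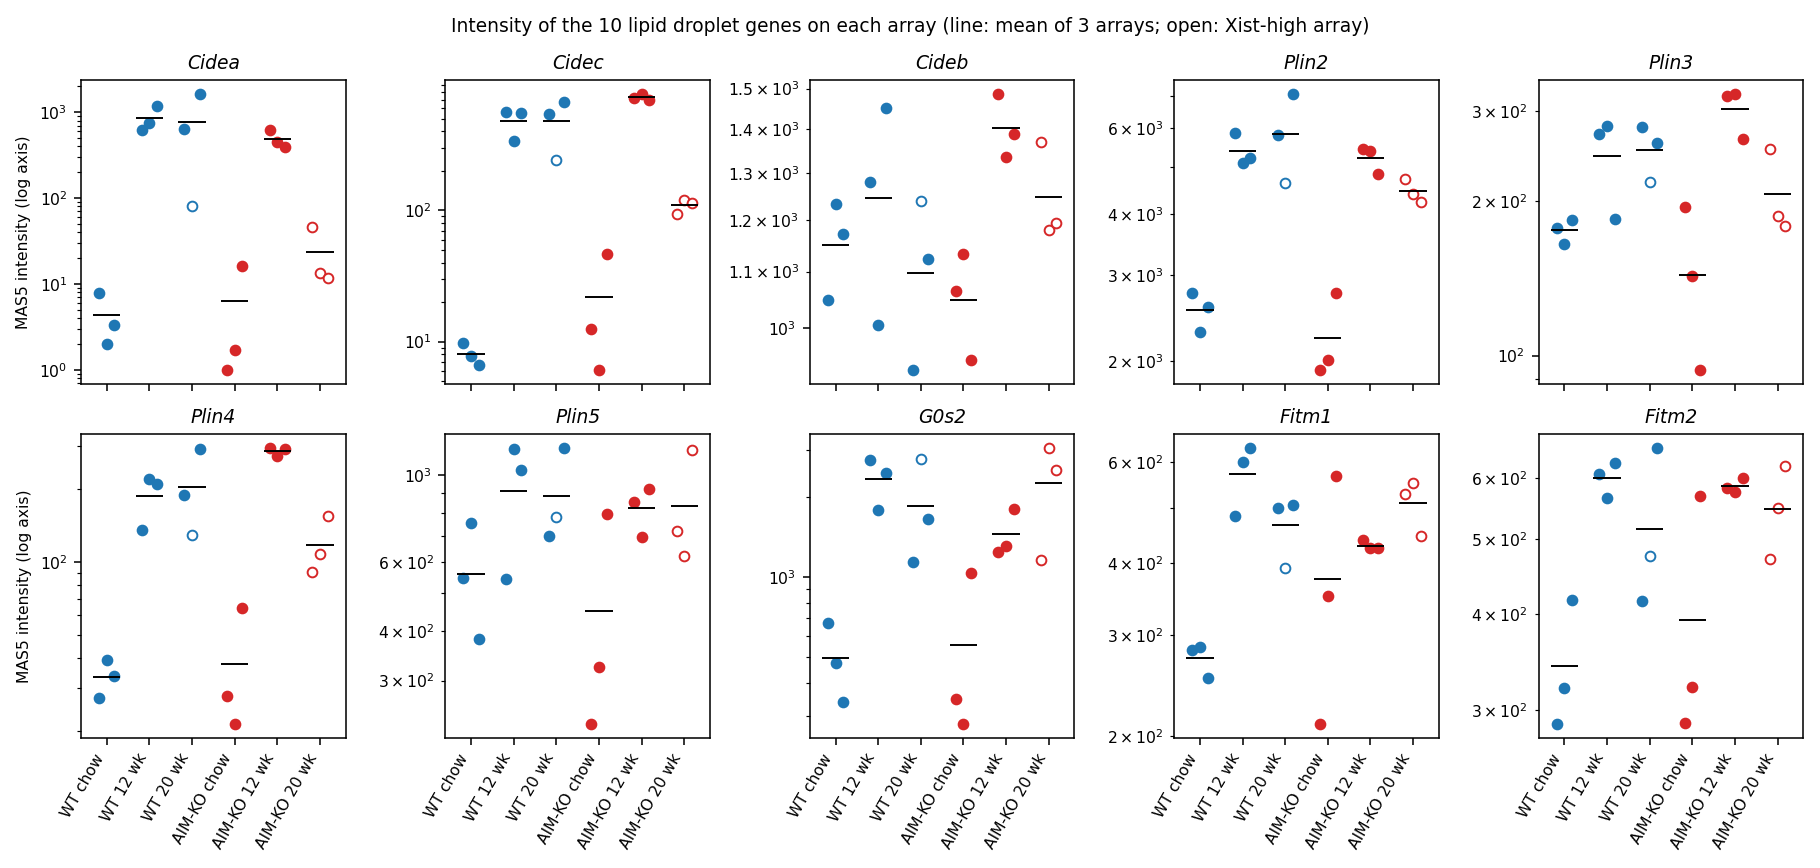
MAS5 intensity (log axis, a separate scale for each gene) of the 10 genes on each of the 18 arrays, WT in blue and AIM-KO in red, with the mean of 3 arrays as a line and Xist-high arrays as open circles. Cidea reads 1 to 16.3 on chow and 395.7 to 1186 at 12 weeks of HFD, and its 4 open circles at 20 weeks lie between 11.8 and 80.2.

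The CIDE genes Cidea and Cidec had the largest diet changes of the family, from near background on chow to high levels at 12 weeks of HFD in both genotypes, and Cideb stayed high on every array. Cidea read 7.8, 2 and 3.3 on the 3 WT chow arrays and 1, 1.7 and 16.3 on AIM-KO chow. At 12 weeks it read 629.3, 757.9 and 1186 in WT and 617.1, 456.5 and 395.7 in AIM-KO. No array on chow came near any array at 12 weeks, and 5 of 6 chow arrays were below the 40th percentile of their array, so the chow level is close to background and the size of the rise is only roughly known. On the log2(intensity + 3.3) scale, used for every change below with its standard error and 3 arrays a group, Cidea rose by 6.83 ± 0.76 in WT (adjusted p = 3.6e-05) and by 6.01 ± 0.76 in AIM-KO (adjusted p = 3.2e-05). Pseudocounts of 13.2 and 0.825 gave 5.59 and 7.48 in WT and 4.75 and 6.81 in AIM-KO, and without AIM-KO chow replicate 3 the AIM-KO rise was 6.71. RNA of whole liver cannot tell more cells with a transcript from more transcript per cell.

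At 20 weeks Cidea was read at lower levels on each AIM-KO array than on each WT array. WT arrays read 631.6, 80.2 and 1632, the low value being the Xist-high replicate 2, and AIM-KO arrays read 45.6, 13.4 and 11.8, all Xist-high. WT thus spanned a wide range that still lay above all chow arrays, while the AIM-KO arrays overlapped with AIM-KO chow. The rise against chow was 5.92 ± 0.76 in WT (adjusted p = 4.6e-05; 7.13 ± 0.59 without WT 20 weeks replicate 2, adjusted p = 6.8e-07, and 4.98 without replicate 3, adjusted p = 0.00029). In AIM-KO the difference was 1.62 ± 0.76 (95% confidence interval 0.02 to 3.22, adjusted p = 0.24), which did not pass the test, and it was 1.08 to 2.32 on leaving out 1 array.

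Cidec, also known as Fsp27, a droplet-fusion factor, followed the same course with less spread. It read 9.7, 7.8 and 6.6 on WT chow and 12.4, 6.1 and 46.9 on AIM-KO chow, the last on replicate 3. At 12 weeks the arrays read 563.4, 338.1 and 549.9 in WT and 716.6, 771.7 and 694.4 in AIM-KO, all far above chow. At 20 weeks they read 539.8, 241.8 and 668.1 in WT and 93.4, 120.4 and 114.4 in AIM-KO, so that AIM-KO lay between its chow and its 12 week arrays without overlap on either side. Cidec rose by 5.4 ± 0.43 at 12 weeks (adjusted p = 6e-07) and by 5.31 ± 0.43 at 20 weeks (adjusted p = 3.7e-07) in WT. The rise in AIM-KO was 5.23 ± 0.43 (adjusted p = 4.7e-07) at 12 weeks and 2.52 ± 0.43 (adjusted p = 0.0012) at 20 weeks. As for Cidea, the chow level is near background, with 4 of 6 chow arrays below the 40th percentile, so these sizes are rough. With the pseudocount of 13.2 the rises were 4.52 and 4.43 in WT and 4.58 and 1.98 in AIM-KO, and with 0.825 they were 5.75, 5.66, 5.48 and 2.74. Without AIM-KO chow replicate 3 the AIM-KO rises were 5.91 and 3.21, without replicate 2 they were 4.7 and 2, and with a term for Xist-high arrays the one at 20 weeks was 3.82 (adjusted p = 0.013).

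Cideb, the CIDE gene of normal liver, read 931.2 to 1486 over all 18 arrays, by a probe set of the type that can match several transcripts. For WT its mean ± SD was 1151 ± 94.8 with chow, 1246 ± 226 after 12 weeks of HFD and 1098 ± 156 after 20, with overlapping arrays throughout. For AIM-KO the means were 1048 ± 94.3, 1403 ± 76.6 and 1249 ± 106 in the same order. The rise at 12 weeks in AIM-KO was small, 0.42 ± 0.13 (adjusted p = 0.031), and the WT differences of 0.1 (95% confidence interval -0.17 to 0.38) and -0.07 (-0.35 to 0.2) did not pass. The AIM-KO call was kept without AIM-KO chow replicate 2 and ended without each of the other 5 arrays, at 0.44 and 0.35 without AIM-KO chow replicates 1 and 3 and 0.38, 0.46 and 0.43 without AIM-KO 12 weeks replicates 1, 2 and 3.

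Among the perilipins Plin2 and Plin4 rose in every HFD group. Plin2, the coat protein of most liver droplets, read 2753, 2295 and 2576 on WT chow, 5880.5, 5101 and 5213 at 12 weeks, and 5808, 4636 and 7056 at 20 weeks. AIM-KO arrays read 1919, 2014 and 2754 on chow, 5434, 5384 and 4831 at 12 weeks, and 4728, 4407 and 4228.5 at 20 weeks. Each HFD array thus lay above each chow array, with the 4 Xist-high arrays the lowest of all 12. The rises were even in size: 1.09 ± 0.14 (adjusted p = 0.00015) and 1.18 ± 0.14 (adjusted p = 2.5e-05) at 12 and 20 weeks in WT, and 1.24 ± 0.14 (adjusted p = 1.2e-05) and 1.02 ± 0.14 (adjusted p = 0.00023) in AIM-KO, or 2.02- to 2.37-fold.

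Plin4, a perilipin best known from adipocytes and muscle, started from a lower level. It read 27.4, 39.1 and 33.7 on WT chow and 27.8, 21.4 and 64.2 on AIM-KO chow. At 12 weeks it read 135.2, 219.2 and 209.8 in WT and 295.6, 275 and 292 in AIM-KO, higher on each AIM-KO than on each WT array. At 20 weeks WT arrays read 189.1, 128.7 and 294.1 and AIM-KO arrays 90.7, 107.8 and 155. Plin4 rose by 2.36 ± 0.32 (adjusted p = 0.00023) and 2.43 ± 0.32 (adjusted p = 6.1e-05) in WT, and by 2.96 ± 0.32 (adjusted p = 7.4e-06) and 1.66 ± 0.32 (adjusted p = 0.0034) in AIM-KO, at 12 and 20 weeks. With a term for Xist-high arrays the last was 2.52 (adjusted p = 0.028).

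Plin3, a perilipin that moves to droplets from the cytosol, rose in AIM-KO at 12 weeks, from 143.8 ± 50.3 to 302.8 ± 33.1 (1.11 ± 0.21, adjusted p = 0.0012). WT means were 175.3 ± 9.43 with chow and 244.8 ± 52.1 and 252 ± 31 after 12 and 20 weeks of HFD. The WT arrays of either HFD group did not overlap with chow, but the changes of 0.45 ± 0.21 (adjusted p = 0.24) and 0.51 ± 0.21 (adjusted p = 0.12) did not pass. At 20 weeks in AIM-KO it was 206.1 ± 40.3 (0.55 ± 0.21, adjusted p = 0.13; 0.8, adjusted p = 0.028, without AIM-KO chow replicate 1).

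Plin5, the perilipin of oxidative tissues that ties droplets to mitochondria, passed in none of the 4 comparisons. It ranged from 382.2 to 754.6 on WT chow and from 545 to 1170 on WT HFD, and from 233 to 797.1 on AIM-KO chow and 620.9 to 1155 on AIM-KO HFD, with overlap in each case. The changes were 0.68 ± 0.37 and 0.67 ± 0.37 in WT (adjusted p = 0.34 and 0.26) and 1.05 ± 0.37 and 1.02 ± 0.37 in AIM-KO (adjusted p = 0.059 and 0.11). AIM-KO chow replicate 3 was the highest chow array for this gene, and without it the AIM-KO changes were 1.56 (adjusted p = 0.0034) and 1.53 (adjusted p = 0.0081). The probe set used for Plin5 is, like that of Cideb, of the type that can match several transcripts. The dimmer Plin5 probe set, not of that type, gave 0.99 ± 0.32 at 12 weeks in AIM-KO (adjusted p = 0.041) and passed in no other of these comparisons.

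G0s2, the lipase inhibitor, rose in every HFD group with much spread between arrays. It read 670.7, 473 and 339.8 on WT chow, 2740, 1775 and 2458 at 12 weeks, and 1141, 2763 and 1648 at 20 weeks. AIM-KO arrays read 348.5, 280.9 and 1033 on chow, 1240.2, 1307 and 1790.5 at 12 weeks, and 1156, 3043 and 2521 at 20 weeks. All HFD arrays exceeded all chow arrays, though AIM-KO chow replicate 3 came close to the lowest of them. The rises were 2.26 ± 0.42 (adjusted p = 0.0036) and 1.86 ± 0.42 (adjusted p = 0.0061) in WT and 1.61 ± 0.42 (adjusted p = 0.012) and 2.14 ± 0.42 (adjusted p = 0.0041) in AIM-KO. In AIM-KO at 12 weeks the call ended without AIM-KO chow replicate 1 (1.4, adjusted p = 0.053) or 2 (1.24, adjusted p = 0.075) and without AIM-KO 12 weeks replicate 3 (1.44, adjusted p = 0.051), and at 20 weeks it ended with a term for Xist-high arrays (1.13, adjusted p = 0.5).

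Of the droplet-forming genes, Fitm1, the member best known from muscle, rose in WT and Fitm2, the widely expressed member, at 12 weeks. Fitm1 read 252.8 to 286.1 on WT chow, 482.9 to 634.5 at 12 weeks and 392.5 to 505.1 at 20 weeks, with no HFD array as low as a chow array, and rose by 1.05 ± 0.23 (adjusted p = 0.0097) and 0.75 ± 0.23 (adjusted p = 0.033). On AIM-KO chow it ranged widely, at 210.4, 350.8 and 567.1, and the AIM-KO changes of 0.3 ± 0.23 (adjusted p = 0.42) and 0.54 ± 0.23 (adjusted p = 0.18) did not pass. They were 0.65 (adjusted p = 0.017) and 0.89 (adjusted p = 0.0052) without AIM-KO chow replicate 3, the array that read 567.1, and -0.05 (adjusted p = 0.88) and 0.18 (adjusted p = 0.66) without replicate 1, the array that read 210.4. The WT call at 20 weeks was kept only without WT 20 weeks replicate 2 among the 6 arrays and ended at 0.77, 0.78 and 0.69 without WT chow replicates 1, 2 and 3 and at 0.7 and 0.69 without WT 20 weeks replicates 1 and 3.

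Fitm2 was 342.2 ± 66.9 on WT chow and 600.1 ± 31.8 at 12 weeks, a rise of 0.82 ± 0.21 (adjusted p = 0.025), and 393.4 ± 153 against 586.5 ± 12.5 in AIM-KO, a rise of 0.64 ± 0.21 (adjusted p = 0.039). At 20 weeks the changes of 0.58 ± 0.21 in WT (adjusted p = 0.068) and 0.53 ± 0.21 in AIM-KO (adjusted p = 0.14) did not pass. In WT at 12 weeks the call ended without WT chow replicate 1 or 2 (0.71 and 0.78) and without WT 12 weeks replicate 1 or 3 (0.81 and 0.79). In AIM-KO at 12 weeks it ended without AIM-KO chow replicate 1 or 2 (0.45 and 0.53) and without each AIM-KO 12 weeks array (0.64, 0.65 and 0.62). At 20 weeks it began without WT chow replicate 3 in WT (0.73, adjusted p = 0.049) and without AIM-KO chow replicate 3 in AIM-KO (0.83, adjusted p = 0.007).

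**Figure D2:**
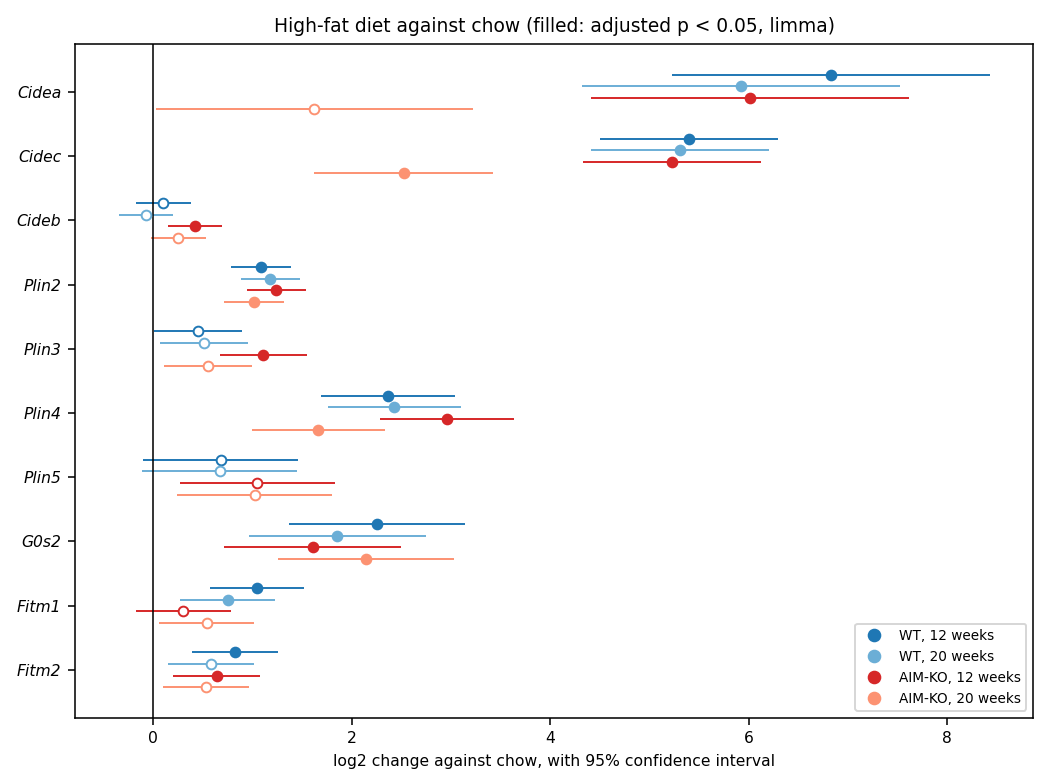
Change against chow of each gene on the log2(intensity + 3.3) scale (x axis) with 95% confidence intervals, WT in blue and AIM-KO in red, the paler shade for 20 weeks and filled circles for an adjusted p under 0.05. Plin2 lies between 1.02 and 1.24 in all 4 comparisons, whereas Cidea and Cidec in AIM-KO fall from 6.01 and 5.23 at 12 weeks to 1.62 and 2.52 at 20 weeks.

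Counted over the family, 7 of 10 members rose at 12 weeks in WT, where 5.14% of all genes were called (3.52% as higher), and 6 of 10 at 20 weeks in WT, where 14.5% were called (8.72% as higher). In AIM-KO 8 of 10 rose at 12 weeks, against 18.1% of all genes called (11.4% as higher), and 4 of 10 at 20 weeks, against 6.96% (4.29% as higher). No member was lower in any of the 4 comparisons. HFD and chow arrays did not overlap for 8 and 7 of 10 members at 12 and 20 weeks in WT, against 23.9% and 29.1% of all genes, and for 8 and 5 of 10 in AIM-KO, against 34.8% and 24%. The median change of the 10 was 1.07 and 0.97 in WT and 1.18 and 1.02 in AIM-KO, at 12 and 20 weeks, beside medians between -0.01 and 0.04 over all genes. Both durations share the chow arrays of their genotype. The AIM-KO count at 12 weeks was 5 without AIM-KO chow replicate 1 or AIM-KO 12 weeks replicate 3, and at 20 weeks it was 7 without AIM-KO chow replicate 3. Since the dim filter needed 3 arrays of 18, Cidea (above the 40th percentile on 12 arrays) and Cidec (on 14) passed it through their HFD groups, while the other 8 members passed on all 18.

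Between 12 and 20 weeks of HFD 3 of the 10 members fell in AIM-KO and 0 passed the test in WT; the difference between the genotypes in this change was not tested. In AIM-KO livers Cidea fell by 4.39 on the log2 scale (SE 0.76, adjusted p = 0.0055), Cidec by 2.7 (SE 0.43, adjusted p = 0.0043) and Plin4 by 1.3 (SE 0.32, adjusted p = 0.033), against a background in which 3.44% of all genes were called (2.12% as lower). Arrays of the 2 times did not overlap for 6 of 10 members, against 27.9% of all genes: these 3, Plin2 and Plin3, which were below, and Fitm1, which was above. The Plin2 and Plin3 values were -0.23 ± 0.14 (adjusted p = 0.47) and -0.56 ± 0.21 (adjusted p = 0.17), which did not pass. In WT limma called 0 members, and 0 had an unadjusted p under 0.05, where 0.0204% of all genes were called. Arrays did not overlap for 0 of 10, against 10.3% of all genes. The WT change of Cidea was -0.91 ± 0.76 (95% confidence interval -2.51 to 0.69), from -1.85 without WT 20 weeks replicate 3 to 0.29 without replicate 2, so its direction rests on single arrays. That of Cidec was -0.09 ± 0.43 (-0.98 to 0.81). The fall of Plin4 in AIM-KO did not pass without any of the 6 arrays taken singly (-1.51 to -1.13, adjusted p = 0.063 to 0.13).

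These falls coincide with the Xist-high arrays. At 20 weeks the 4 Xist-high arrays were below both other arrays (WT replicates 1 and 3) for 5 of 10 members, namely Cidea, Cidec, Plin2, Plin3 and Plin4, as they were for 17.4% of all genes. For Cidea they read 11.8 to 80.2 against 631.6 and 1632, for Cidec 93.4 to 241.8 against 539.8 and 668.1, and for Plin4 90.7 to 155 against 189.1 and 294.1. The sole WT array among them, replicate 2, thus read like the AIM-KO arrays rather than like its own group for Plin4, and stood between the groups for Cidea and Cidec. For Cideb the 4 arrays were above the other 2, an order whose share over all genes was not counted. G0s2, Plin5, Fitm1 and Fitm2 showed no such order. With a term for Xist-high arrays, which rests on that single WT array, the AIM-KO changes from 12 to 20 weeks were -0.78 for Cidea (adjusted p = 0.89), -1.4 for Cidec (adjusted p = 0.65) and -0.44 for Plin4 (adjusted p = 0.9), and Cidea at 20 weeks against AIM-KO chow was 5.23 (adjusted p = 0.013). With this term the calls over all genes from 12 to 20 weeks in AIM-KO went from 505 to 5. Because all 3 AIM-KO arrays at 20 weeks are Xist-high and no other AIM-KO array is, weeks of diet and the Xist state cannot be told apart within AIM-KO.

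**Figure D3:**
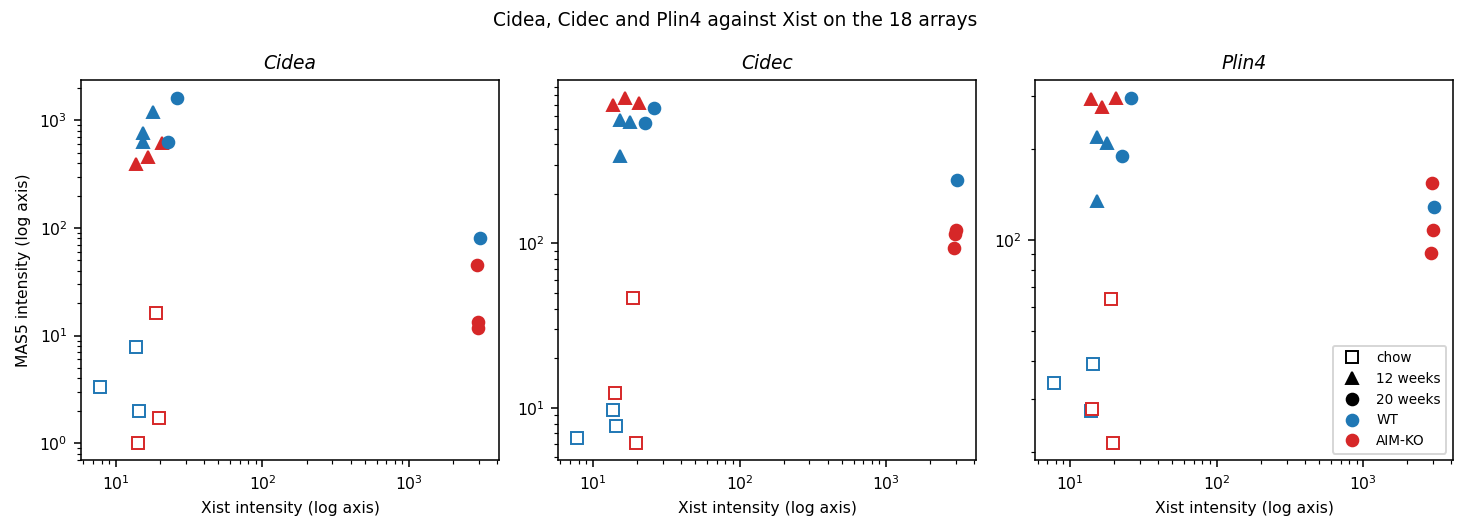
Intensity of Cidea, Cidec and Plin4 against Xist intensity (both axes logarithmic) on the 18 arrays, open squares for chow, triangles for 12 weeks and circles for 20 weeks, WT in blue and AIM-KO in red. The 4 arrays on the right, with Xist at 2922 to 3050, are all of 20 weeks and lie below the 2 Xist-low circles in each panel.

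The comparison of AIM-KO with WT was made on each diet. On chow limma called 0 of 10 members, none with an unadjusted p under 0.05, where 0.0272% of all genes were called. Arrays overlapped for every member, so 0 of 10 stood apart, against 11.5% of all genes. At 12 weeks it also called 0, none with an unadjusted p under 0.05, where 0.0749% were called. The arrays did not overlap for 4 of 10 members, against 16% of all genes: Cidec and Plin4 were above WT and Cidea and Fitm1 below. Their differences, AIM-KO minus WT, were 0.62 (95% confidence interval -0.28 to 1.52), 0.63 (-0.04 to 1.31), -0.78 (-2.38 to 0.82) and -0.4 (-0.88 to 0.07). For Plin2 the interval at 12 weeks was narrow, -0.35 to 0.25 around -0.05.

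At 20 weeks 1 of 10 members differed between the genotypes, where 0.157% of all genes were called (0.129% as lower). Cidea was 23.6 ± 19.1 in AIM-KO and 781.2 ± 787 in WT, a difference of -4.26 ± 0.76 (adjusted p = 0.037). Cidec, at 109.4 ± 14.2 against 483.2 ± 219, had a difference of -2 ± 0.43 that did not pass (adjusted p = 0.063). Arrays did not overlap for these 2 of 10 members, against 15.7% of all genes. Leaving out WT 20 weeks replicate 1 (-4, adjusted p = 0.26) or 3 (-3.32, adjusted p = 0.15) ended the Cidea call, as did leaving out AIM-KO 20 weeks replicate 2 (-4.03, adjusted p = 0.077) or 3 (-3.95, adjusted p = 0.19). With the Xist term it was -1.85 (adjusted p = 1). Without the Xist-high WT array, replicate 2, every remaining AIM-KO array differs from every remaining WT array in Xist. Cidea (-5.46, adjusted p = 5.6e-05), Cidec (-2.43, adjusted p = 0.0032) and Plin2 (-0.52, adjusted p = 0.03) were then lower in AIM-KO. In that fit 948 of all genes were called, against 23 in the main fit. Genotype and the Xist state cannot be told apart there. RNA quality also differed at 20 weeks: probe sets at both ends of the actin transcript gave a 3' to 5' ratio of 3.47 ± 0.86 for WT, against 2.51 ± 0.14 for AIM-KO. WT replicates 1 and 3 read 3.64 and 4.22. The Xist-high WT replicate 2 read 2.54, within the AIM-KO range of 2.35 to 2.61. This ratio thus split the 20 week arrays as Xist did, and the 2 cannot be told apart there. With a term for this ratio Cidea differed by -3.57 (adjusted p = 0.4).

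A test of the difference itself, the diet effect in AIM-KO minus that in WT, called 0 members at 12 weeks and 0 at 20 weeks, where 0.00681% and 0% of all genes were called. At 12 weeks 2 members had an unadjusted p under 0.05, Plin3 (0.66 ± 0.3, adjusted p = 0.51) and Fitm1 (-0.74 ± 0.32, adjusted p = 0.48). At 20 weeks these were Cidea (-4.3 ± 1.08, adjusted p = 0.21) and Cidec (-2.79 ± 0.61, adjusted p = 0.16). They passed without WT 20 weeks replicate 2, at -5.5 (adjusted p = 0.0033) and -3.22 (adjusted p = 0.0093). In that fit 331 of all genes were called, against 0 in the main fit, so passing there was not particular to these 2 members. Cidec also passed without AIM-KO chow replicate 2 (-3.31, adjusted p = 0.038), where 4 of all genes were called.

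**Figure D4:**
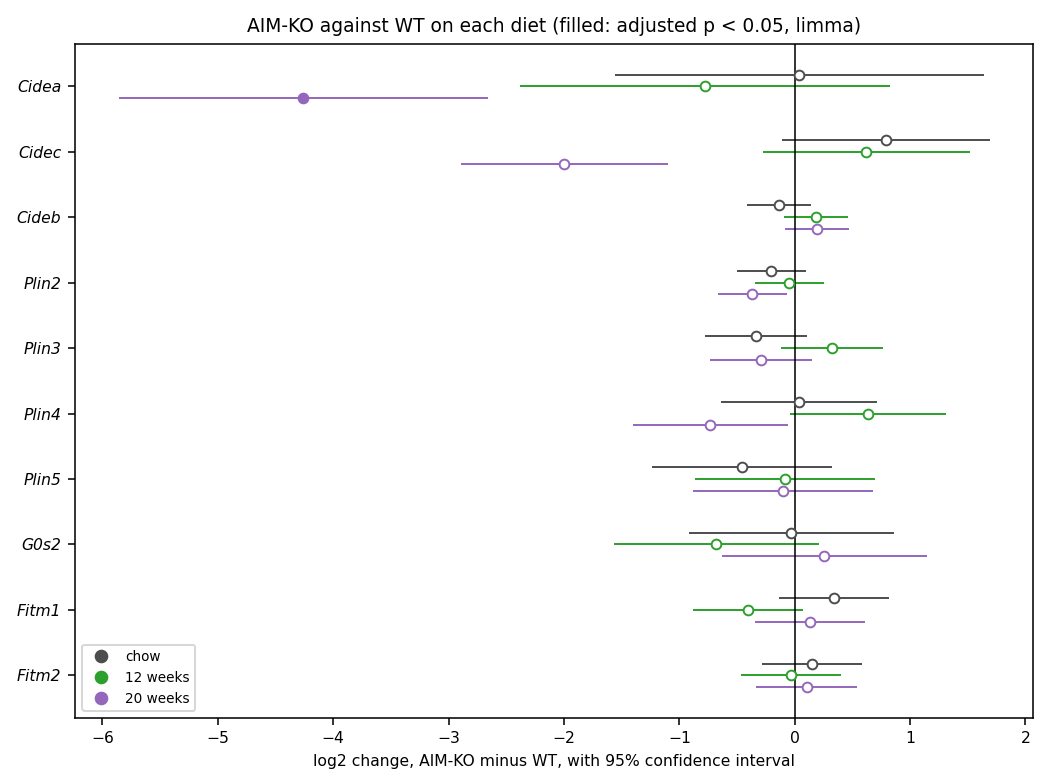
Difference between AIM-KO and WT of each gene on chow, at 12 weeks and at 20 weeks (x axis, log2(intensity + 3.3) scale, AIM-KO minus WT) with 95% confidence intervals and filled circles for an adjusted p under 0.05. Cidea at 20 weeks, at -4.26, has the only filled circle.

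Other proteins of the droplet surface and its lipases were read from a list of 32 genes, of which 29 were tested. In WT 4 rose and 0 fell at 12 weeks, where 5.14% of all genes were called, and 9 rose and 2 fell at 20 weeks, where 14.5% were. In AIM-KO 8 rose and 2 fell at 12 weeks, where 18.1% were called, and 4 rose and 1 fell at 20 weeks, where 6.96% were. Their median changes were 0.1, 0.03, 0.27 and 0.26, and no difference from the coat and CIDE genes was tested. Mgll, which splits monoglycerides, rose by 1.06 ± 0.28, 0.94 ± 0.28, 1.21 ± 0.28 and 1.37 ± 0.28 in that order. Pnpla5, a lipase of the patatin family, rose by 1.36 ± 0.34, 1.83 ± 0.34, 1.26 ± 0.34 and 1.4 ± 0.34, and Hsd17b7, an enzyme of sterol synthesis, by 0.92 ± 0.19, 0.81 ± 0.19, 0.88 ± 0.19 and 1.42 ± 0.19. Every adjusted p of these 3 genes was at most 0.035. Among the largest called changes were also Pnpla3 (1.19 ± 0.35, adjusted p = 0.03) and Acsl3 (1.04 ± 0.32, adjusted p = 0.036), a lipase and an acyl-CoA synthetase of droplets, at 20 weeks in WT, and the hypoxia-induced lipase inhibitor Hilpda (1 ± 0.34, adjusted p = 0.046) at 12 weeks in AIM-KO. The lipase gene Pnpla2 and its activator Abhd5, named here after their values were seen because G0S2 acts on this pair, changed by -0.09 to 0.13 and by -0.33 to 0.05, none past the test.

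**Figure D5:**
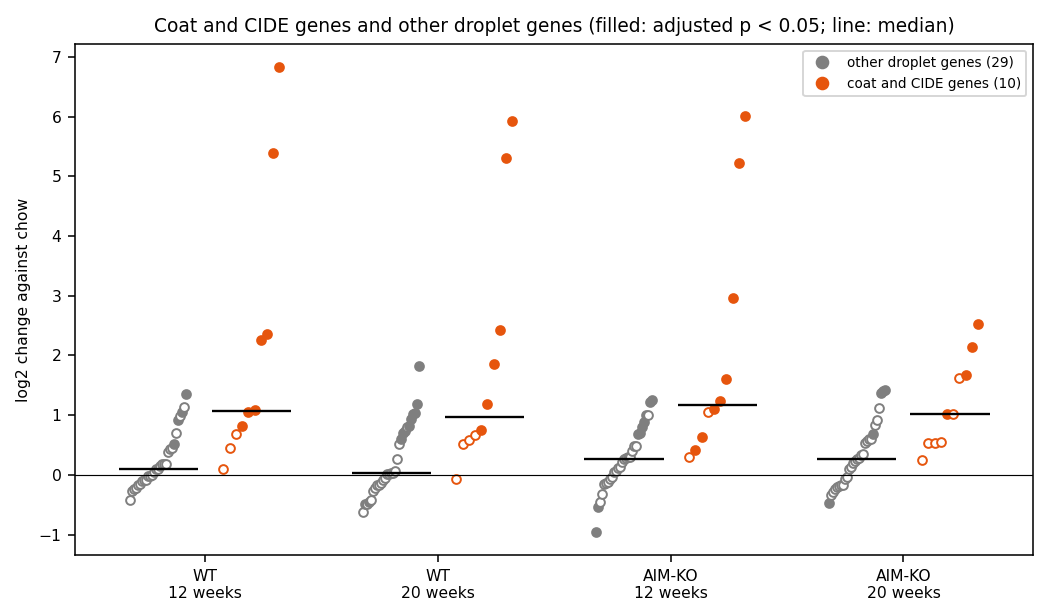
Change against chow (y axis, log2(intensity + 3.3) scale) of the 10 coat and CIDE genes (orange) and of 29 other droplet genes (grey) in the 4 comparisons with chow, each circle a gene, filled for an adjusted p under 0.05, with the median as a line. The medians of the coat and CIDE genes lie between 0.97 and 1.18 and those of the other genes between 0.03 and 0.27.

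Of 10 transcription regulators of droplet genes, Pparg rose in all 4 comparisons, by 1.24 ± 0.25 (adjusted p = 0.0065) and 0.94 ± 0.25 (adjusted p = 0.017) in WT and by 1.36 ± 0.25 (adjusted p = 0.001) and 0.91 ± 0.25 (adjusted p = 0.036) in AIM-KO. It was the only riser of the 10 in each, where 3.52%, 8.72%, 11.4% and 4.29% of all genes were called as higher. The list had 1 and 2 fallers in WT and 2 and 0 in AIM-KO. Over all genes 5.14%, 14.5%, 18.1% and 6.96% were called in either direction. Mlxipl, the carbohydrate response factor, fell by 0.88 and 1.08 on the log2 scale in WT (SE 0.17, adjusted p = 0.005 and 0.00038). Rxra, the partner of PPARs, changed by -0.46 ± 0.15 (adjusted p = 0.045) at 20 weeks in WT, and Srebf1 and the coactivator gene Ppargc1a by -0.8 ± 0.24 (adjusted p = 0.028) and -0.56 ± 0.19 (adjusted p = 0.042) at 12 weeks in AIM-KO. From 12 to 20 weeks in AIM-KO Ppargc1a rose by 0.88 ± 0.19 (adjusted p = 0.014), where 3.44% of all genes were called. That change rests on the AIM-KO arrays of 20 weeks, which are all Xist-high. In AIM-KO against WT, limma called no gene of this or the droplet list on any of the 3 diets.

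Markers of other cells were read beside these results, because Cidea, Cidec and Plin4 are also adipocyte genes. Of 12 adipocyte markers 9 were on the array with a named probe set. Adipoq read 0.8 to 8.9 and Lep 0.4 to 9.6, below the 40th percentile on all 18 arrays. The other markers went above it, Fabp4, Slc2a4 and Lipe on all 18 arrays, Acvr1c on 16, Retn on 9, Tshr on 8 and Aqp7 on 4. The summed level of the 9 was 236 to 269.1 on WT chow, 497.7 to 608.9 at 12 weeks and 410 to 1144 at 20 weeks in WT, and 174.1 to 252.3, 749.6 to 909.1 and 412.5 to 549.8 in AIM-KO. This sum follows mainly Fabp4, with a median of 365.1 over the 18 arrays. The next highest median was 50, for Slc2a4. Fabp4, which macrophages also make, read 82.2 to 1030 and rose in all 4 comparisons (1.67 to 2.75), and of the 7 tested the only other called member was the glycerol channel gene Aqp7 (2.19 ± 0.54, adjusted p = 0.0079, at 12 weeks in AIM-KO). The list thus had 1 and 1 of 7 higher in WT and 2 and 1 in AIM-KO, where 3.52%, 8.72%, 11.4% and 4.29% of all genes were. Skeletal muscle markers, read because of Fitm1, summed to 54.3 to 130.7 over 10 genes, and limma called none of the 5 tested. With 5.14% to 18.1% of all genes called against chow, a count of 0 among 5 genes says little.

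Macrophages can also hold Plin2-coated droplets, so 10 of their markers were read. In WT 2 of the 10 rose at 12 weeks and 7 at 20 weeks, where 3.52% and 8.72% of all genes were called as higher. In AIM-KO 7 rose at 12 weeks and 1 at 20 weeks, where the shares were 11.4% and 4.29%. The summed level was 1917 to 1964 on WT chow, 2174 to 3396 at 12 weeks and 3109 to 3569.8 at 20 weeks, and in AIM-KO 1674 to 2008.5, 3598 to 3940.3 and 1953 to 2699. The elastase gene Mmp12 rose in all 4 (2.81 and 4.38 in WT, 4.69 and 2.05 in AIM-KO), Lgals3 in 3 (1.79, 2.64 and 2.84, the last in AIM-KO at 12 weeks) and Gpnmb, a marker of lipid-laden macrophages, in 2 (2.66 in WT at 20 weeks, 3.3 in AIM-KO at 12 weeks). From 12 to 20 weeks in AIM-KO 3 of the 10 fell, where 2.12% of all genes were called as lower. At 20 weeks Mmp12 (-2.55, adjusted p = 0.026) and Lgals3 (-1.93, adjusted p = 0.041) were lower in AIM-KO than in WT, where 0.129% were. Cidea was lower in both comparisons too, and both rest on the AIM-KO arrays of 20 weeks, which are all Xist-high. Of 9 hepatocyte markers tested, 1 and 4 fell in WT, where 5.14% and 14.5% of all genes were called in either direction, and 7 and 0 in AIM-KO, where 18.1% and 6.96% were, at 12 and 20 weeks, among them Hnf4a in WT at both (-0.45 and -0.65). The part of these cells in the droplet gene changes was not tested.

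Over the 18 arrays the members formed a tight core and a loose rim, as a description in which diet groups supply most of the spread. Pearson's r of log2 values was 0.97 for Cidec with Plin4, 0.94 for Cidec with Plin2, 0.93 for Cidea with Cidec and 0.93 for Plin2 with Plin4. Fitm2 joined Plin4 at 0.85 and Cidec at 0.81. Cideb stood outside, with r between 0.11 and 0.4 with the other 9 members. Outside the family, the gene most like each member was Plscr4 for Cidea (0.96), Osbpl3 for Cidec (0.97), Atp6v0d1 for Cideb (0.88), S100a4 for Plin2 (0.99), Atp6v1b2 for Plin3 (0.96), Lgals1 for Plin4 (0.96), Ptprs for Plin5 (0.91), Umps for G0s2 (0.95), Allc for Fitm1 (0.91) and Reep6 for Fitm2 (0.89).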

How the data were processed

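The deposited values are the intensity of each probe set of the Affymetrix mouse array, not log-transformed. The submitters' processing notes name MAS5, with no version in the sources used here. Total RNA (100 ng) was labelled with biotin, per the labels' protocols. The 2% trimmed mean of intensity was 100 on each array. Of 45101 probe sets, 64 were controls and not used. The platform annotation names a single gene for 34945, several for 932 and none for 9160, and the entrez ids of 34741 gave a current symbol (assembly GRCm38.p6). Values were taken as log2(intensity + 3.3), 3.3 being their 20th percentile, so changes of dim genes are understated. A probe set was kept if 3 or more arrays read it above their 40th percentile, and the brightest stood for its gene.

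Group means were fitted on all 18 arrays with limma 3.58.1 in R 4.3.3 (moderated variances with a trend, 18.2 degrees of freedom, 2-sided tests, Benjamini-Hochberg adjustment over 14694 genes, called under 0.05) in 11 comparisons, and the procedure was tested on simulated data. All adjusted p-values are from limma. The labels call the samples biological replicates without naming animals, so p-values measure the spread between these samples. The members and lists were chosen with earlier results of these data known. Genes named are the 10 members, the gene most correlated with each, and up to 3 called genes with the largest change per list and comparison; others are marked. Xist-high means an Xist intensity above 1000.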

Additional observations from a re-analysis of the deposited data

How the results depend on the processing

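All 29 member changes that were called kept their direction under every alternative, and 19 also stayed past the threshold under each. The alternatives were pseudocounts of 13.2 and 0.825, quantile normalization, no dim filter or a 60th percentile one, the mean of probe sets, no variance trend, a replicate block, only the groups compared, terms for Xist-high arrays and for the actin ratio, and leaving out each array. Of 81 changes not called, 34 changed sign and 13 were called in some setting. The 1 member called in AIM-KO against WT at 20 weeks (Cidea) became 2 with the pseudocount of 13.2 and with the replicate block (Cidec was added), and 0 with the pseudocount of 0.825, no dim filter, the mean of probe sets, no variance trend, only the groups compared, the Xist term and the actin term; the cause was not tested. The 3 called from 12 to 20 weeks in AIM-KO became 0 with the Xist term. Over all genes the calls in that comparison went from 505 to 5, so this loss was not particular to the members. Leaving out 1 array gave 0 to 3 members in AIM-KO against WT at 20 weeks and 0 to 2 for the genotype difference in the 20 week diet effect. The highest counts of both came without WT 20 weeks replicate 2, where 948 and 331 of all genes were called. Against chow the counts were 5 to 9 at 12 weeks and 4 to 7 at 20 weeks in AIM-KO, and 6 to 7 and 5 to 6 in WT. From 12 to 20 weeks in AIM-KO the count was 2. The main fit did not use the replicate numbers as pairs. Residual correlations were above 0.1 for 5 of 45 same-numbered pairs (range -0.09 to 0.23), and 11 of 18 arrays correlated best with their own number. Whether the numbers mark a pairing was not settled. The replicate block moved the counts against chow from 7, 6, 8 and 4 to 7, 7, 9 and 5 (WT and AIM-KO at 12 and 20 weeks). The chow levels of Cidea and Cidec near background limit how well their folds are known.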
